A study of Mus musculus with 8 samples.

Results

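The voltage-gated and potassium channel genes of the mouse were followed in the vomeronasal organ, the chemosensory organ of the nasal septum with which mice detect pheromones. The set held the protein-coding genes of GENCODE M21 whose symbol begins with Kcn, Cacn, Scn plus a digit or Hcn plus a digit, and these were 138 of the 48831 genes counted. The choice rests on gene names, so it includes auxiliary subunits and the regulator Kcnrg beside pore-forming channels. Whole-tissue RNA of C57BL/6J mice aged 8 weeks had been sequenced in 8 libraries. Flushed tissue of 1 mouse each gave 2 male libraries (replicates 1 and 3) and 2 female libraries (replicates 2 and 3), and non-flushed tissue pooled from 2 mice each gave 2 male pools and 2 female pools. No genotype, drug or transgene separates the groups, and all mice share the strain and age. Flushing with heparin clears blood from the vessels. The protocol text common to all labels describes it for every mouse, but the descriptions call the pools non-flushed, and the descriptions were used. Flushed and pool libraries also differ in the number of mice and in the sequencing folder named in the file headers, so preparation, pooling and run cannot be told apart.

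Voltage-gated channels open when the membrane potential changes. Sodium channels carry the upstroke of the action potential, calcium channels admit the calcium that triggers transmitter release and signalling, and potassium channels repolarise the cell and set its resting potential. Each pore-forming subunit works with auxiliary subunits that alter its gating or its delivery to the membrane. In vomeronasal sensory neurons the receptor current through Trpc2 is turned into spikes by sodium channels, and hyperpolarisation-activated, calcium-activated, inward-rectifier and ERG potassium channels have been recorded there in the mouse.

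Levels are given as RPKM, the count of a gene scaled by the length of its exons and by the TMM-scaled size of the library, so that genes of different length can be set side by side. Total counts were 22101913 to 24965088 in the flushed libraries and 18763557 to 22096792 in the pools. The olfactory marker protein gene Omp averaged 175 RPKM in flushed libraries and 195 RPKM in pools, as a check on the labelled tissue. Trpc2 itself was listed at 0 in all libraries, whereas the overlapping gene Xntrpc had 416 to 692 counts. Reads over more than 1 gene were not counted, and the part of this rule in the absence of Trpc2 counts was not tested. Flushed libraries carried less of the neutrophil and erythroid markers, with a summed level of 180 to 1010 RPKM against 2560 to 3060 RPKM in pools. In flushed libraries 9 of 9 of these markers were lower. Bone and matrix markers summed to 2050 to 2830 RPKM in flushed libraries and 4670 to 5890 RPKM in pools, with 6 of 8 lower in flushed libraries. The 12 sensory neuron markers summed to 316 to 351 RPKM in flushed libraries and 335 to 418 RPKM in pools. Among the 11 of these tested, 1 was higher and 4 were lower in flushed libraries. Over all genes tested, 22.6% were higher and 22.9% were lower in flushed libraries. In such bulk tissue, fewer cells of a type and less RNA per cell cannot be told apart.

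All pore-forming potassium and Hcn members carry a selectivity filter, the short stretch of the pore that lets potassium through, and its codons are shown here because they are the sequence that unites 81 of the 138 members. A search of the longest complete GENCODE M21 coding sequence for a filter of the threonine-valine-glycine-tyrosine-glycine type, with serine or cysteine allowed in place of threonine, isoleucine, leucine or threonine in place of valine, and phenylalanine or leucine in place of tyrosine, found at least 1 match in each of the 81. The 14 tandem-pore (K2P) members each had 2 matches. Hcn4 also had 2, the second of them at coding base 2713, far past the filter match at base 1432. The following windows of 51 bases, on the sense strand, have the 15 filter bases in capitals, and positions are GRCm38.
Kcnk1, second pore, chr8:126025311-126025361: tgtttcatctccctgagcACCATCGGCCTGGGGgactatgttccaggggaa
Kcnma1, chr14:23528395-23528445: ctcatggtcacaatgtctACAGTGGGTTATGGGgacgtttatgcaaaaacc
Kcna2, chr3:107105206-107105256: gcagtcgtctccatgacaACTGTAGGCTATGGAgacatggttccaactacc
Kcnj2, chr11:111072189-111072239: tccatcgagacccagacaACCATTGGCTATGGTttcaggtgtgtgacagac
Kcnj8, chr6:142566430-142566480: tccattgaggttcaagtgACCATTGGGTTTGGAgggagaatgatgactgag
Kcnt2, chr1:140425260-140425310: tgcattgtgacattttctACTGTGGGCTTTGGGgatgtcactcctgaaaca
Kcnh7, chr2:62777325-62777375: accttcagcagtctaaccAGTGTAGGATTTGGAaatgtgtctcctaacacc
Hcn2, chr10:79728935-79728985: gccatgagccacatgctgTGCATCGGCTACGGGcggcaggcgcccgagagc
The 8 windows lie in exons, in coding sequence. The windows of Kcnh7, Kcnma1 and Kcnt2 tie for the lowest G and C content, 45.1%, and that of Kcnh7 has 0 of 5 filter codons ending in G or C. At the other end is the GC-rich window of Hcn2, with 70.6% and 5 of 5. The same genes span much of the range of base composition over the whole transcript, 36.6% GC in Kcnt2, 39.6% in Kcnh7 and 65.4% in Hcn2, which matters for the comparison of preparations described later.

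Of the 138 members, 7 had a mean of 10 RPKM or more over the 8 libraries and 67 had 1 RPKM or more. Another 42 lay between 0.1 and 1 RPKM and 29 below 0.1 RPKM. Cacng6, Kcnk15, Kcnk16 and Kcnk18 had no count in any library. The 10 highest members made up 35.4% of the summed level of the set. That sum was 390 ± 8.5 RPKM in flushed libraries and 378 ± 7.25 RPKM in pools (SD, n = 4 each). The members took 0.248 to 0.27% of all counts in flushed libraries and 0.197 to 0.228% in pools.

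Kcnk1, which encodes the tandem-pore leak channel TWIK-1, had the highest mean level, at 20.4 ± 1.7 RPKM over all libraries (SD, n = 8). It ranked first or second in every library. Cacnb3, the beta3 subunit of high-voltage-activated calcium channels, followed with 19.5 ± 3.65 RPKM, and Kcnma1, the pore of the large-conductance calcium-activated (BK) potassium channel, with 17.5 ± 2.84 RPKM. The levels of these 3 overlapped, and each of them was among the 4 highest in every library. Scn7a reached 13.7 ± 3.46 RPKM. It encodes Nax, a relative of the sodium channels that senses extracellular sodium. The Shaker-type channels Kcna2 and Kcna5 had 13.2 ± 2.37 and 11.3 ± 1.22 RPKM, and Kcnmb2, the inactivating beta2 subunit of BK channels, 11 ± 0.699 RPKM. Scn3a (Nav1.3), Kcnrg (a regulator that resembles the assembly domain of Kv channels) and Kcnq1 (the Kv7.1 channel of heart and epithelia) closed the first 10, with 9.95 ± 2.07, 9.91 ± 4.51 and 9.62 ± 1.43 RPKM. Kcnrg had the widest range of ranks among these, from 1 to 23.

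**Figure D1:**
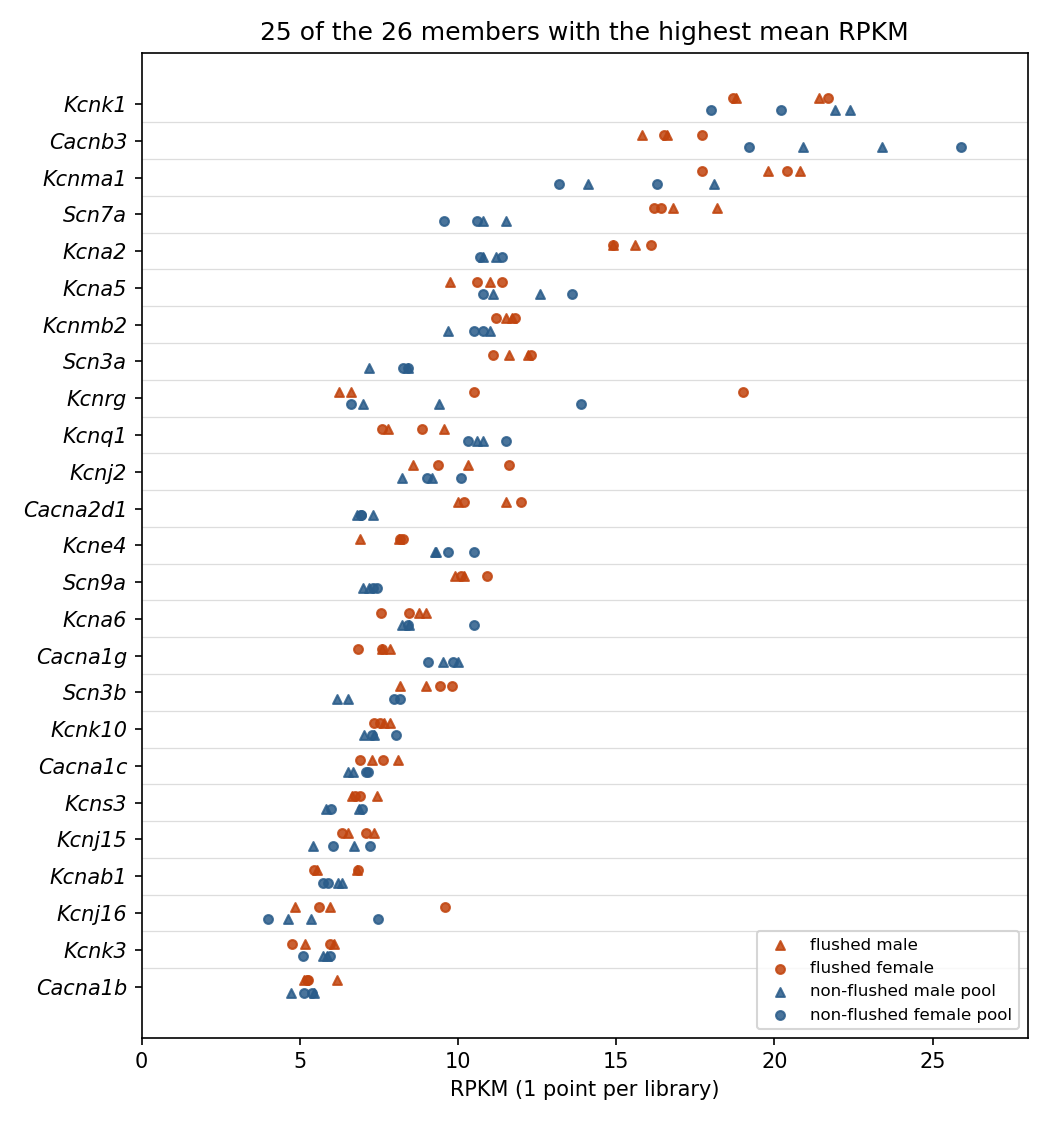
RPKM (horizontal axis) of 25 of the 26 members with the highest mean level (vertical axis, highest on top), 1 point per library, with flushed libraries in red above the non-flushed pools in blue, triangles for males and circles for females. Scn7a, Kcna2, Kcnmb2, Scn3a, Cacna2d1, Scn9a and, by a gap lost in rounding, Scn3b have all 4 flushed points to the right of the pool points. Cacnb3, Kcnq1, Kcne4 and Cacna1g have them to the left. Over all genes tested, levels did not overlap for 41.7%. Kcnrg is spread from 6.25 to 19.0 RPKM.

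By class, the calcium- or sodium-activated potassium channels with their Kcnmb subunits had the highest summed level, 47.6 ± 2.04 RPKM in flushed libraries and 43.0 ± 2.45 RPKM in pools (SD, n = 4 each). The Kv alpha class (Kcna, Kcnb, Kcnc, Kcnd) followed, with 46.6 ± 1.77 RPKM in flushed libraries and 42.6 ± 2.21 RPKM in pools. Among the Kv alpha members, 6 of 17 reached 1 RPKM, and Kcna6 (8.67 ± 0.85 RPKM over 8 libraries) came next after Kcna2 and Kcna5. The silent Kv subunits, which form channels only together with Kcnb subunits, summed to 11.5 ± 0.547 RPKM in flushed libraries and 11.9 ± 0.858 RPKM in pools. More than any other silent subunit, Kcns3 contributed to this, with 6.67 ± 0.528 RPKM over all libraries. The tandem-pore class held 40.7 ± 1.55 RPKM in flushed libraries and 41.9 ± 1.53 RPKM in pools, and after Kcnk1 it was led by Kcnk10 (TREK-2), with 7.5 ± 0.328 RPKM, and Kcnk3 (TASK-1), with 5.57 ± 0.504 RPKM.

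The inward rectifiers, which hold the resting potential, summed to 31.0 ± 4.01 RPKM in flushed libraries and 30.1 ± 2.48 RPKM in pools. Kcnj2 (Kir2.1) led with 9.55 ± 1.1 RPKM, before Kcnj15 (Kir4.2) with 6.58 ± 0.653 RPKM and Kcnj16 (Kir5.1) with 5.93 ± 1.8 RPKM. In the Kcnh class Kcnh6 (ERG2) had 4.63 ± 0.734 RPKM, Kcnh3 4.19 ± 0.996 RPKM and Kcnh2 (ERG1) 3.36 ± 0.449 RPKM. Of the Kcnq class, Kcnq3, a subunit of the M current of neurons, had 3.09 ± 0.466 RPKM. The auxiliary potassium subunits were led by Kcne4 (8.77 ± 1.13 RPKM), Kcnab1 (6.09 ± 0.538 RPKM) and Kcnip3 (3.65 ± 0.36 RPKM). Their class sum did not overlap between preparations, with 22 to 25.6 RPKM in flushed libraries and 26.7 to 28.4 RPKM in pools. The Hcn class, cation channels opened by hyperpolarisation, was small, with 5.48 ± 0.29 RPKM in flushed libraries and 6.60 ± 1.02 RPKM in pools.

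Sodium channel alpha subunits were the class with the widest gap between preparations. They summed to 44.4 to 46.9 RPKM in flushed libraries and 32.3 to 33.4 RPKM in pools, which is 11.8 ± 0.403% and 8.70 ± 0.102% of the set (SD, n = 4 each). Scn7a, Scn3a and Scn9a made up most of it. The sodium channel beta subunits, among them Scn3b with 8.15 ± 1.29 RPKM and Scn2b with 1.03 ± 0.204 RPKM, summed to 17.4 ± 0.791 RPKM in flushed libraries and 18.8 ± 1.6 RPKM in pools. Among calcium channel pores, the T-type Cacna1g had 8.54 ± 1.22 RPKM, the L-type Cacna1c 7.17 ± 0.511 RPKM and the N-type Cacna1b 5.30 ± 0.413 RPKM. Of the beta subunits, Cacnb2 had 4.15 ± 0.932 RPKM and Cacnb1 1.81 ± 0.241 RPKM, far below Cacnb3. Of the alpha2delta subunits, Cacna2d1 and Cacna2d3 had 8.97 ± 2.21 and 3.43 ± 0.302 RPKM. The alpha2delta sum was 13.6 to 15.6 RPKM in flushed libraries and 9.72 to 10.9 RPKM in pools. Of the gamma subunits, best known as partners of AMPA receptors, Cacng5 had 2.72 ± 0.229 RPKM and Cacng7 2.42 ± 0.26 RPKM.

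**Figure D2:**
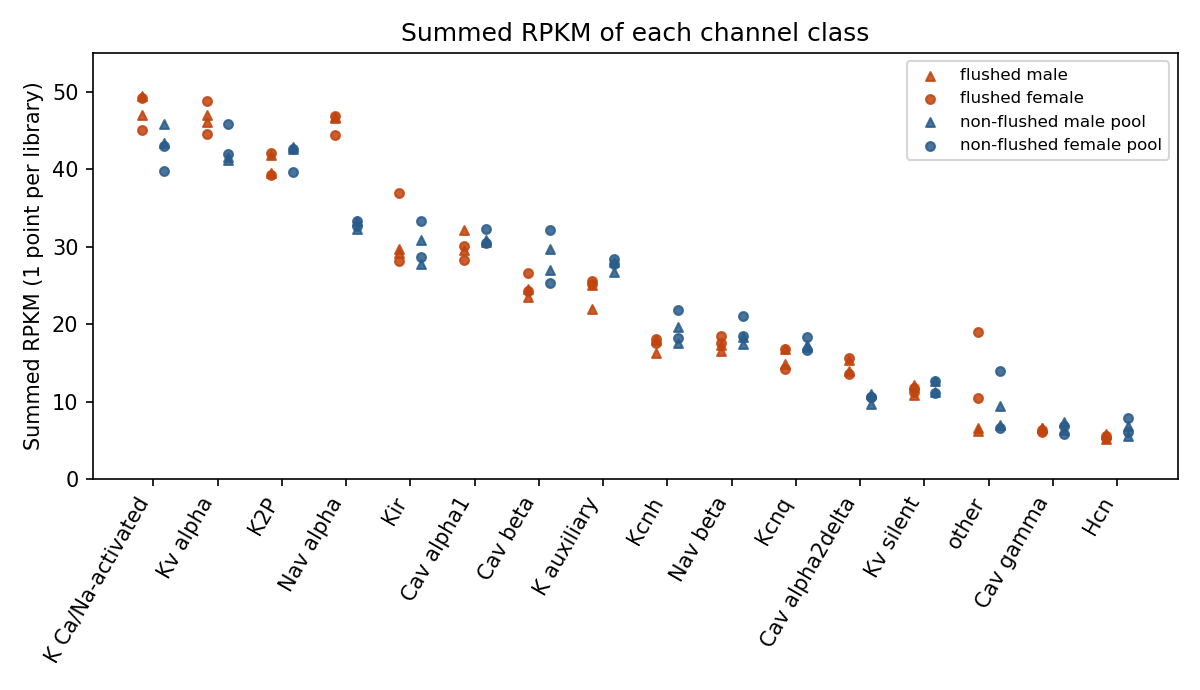
Summed RPKM (vertical axis) of the members of each channel class (horizontal axis), 1 point per library, with flushed libraries in red to the left of the non-flushed pools in blue, triangles for males and circles for females. The sodium channel alpha subunits (Nav alpha) and the calcium channel alpha2delta subunits lie higher in all 4 flushed libraries than in any pool, and the class "other" holds Kcnrg alone.

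Many members lie near other members in the genome. In GRCm38, 55 members fell into 23 runs in which each lay within 500 kb of the next, whatever their class. Levels differed widely within a run. On chromosome 2, Scn3a (65457118 to 65567627) had 9.95 ± 2.07 RPKM and its neighbour Scn2a 1.15 ± 0.211 RPKM, and farther along Scn1a had 0.113 ± 0.022 RPKM beside Scn9a (66480080 to 66634962) with 8.75 ± 1.66 RPKM and Scn7a (66673425 to 66784914) with 13.7 ± 3.46 RPKM. On chromosome 9, the sensory neuron channel genes Scn10a and Scn11a, which lie side by side, had 0.00325 ± 0.00364 and 0.0806 ± 0.0252 RPKM. On chromosome 6 all 3 genes of a Shaker cluster were expressed, Kcna5 with 11.3, Kcna1 with 3.98 and Kcna6 with 8.67 RPKM. In the cluster on chromosome 3, Kcna2 had 13.2 RPKM, Kcna3 0.672, Kcna10 0.0266 and Kcnc4 0.547 RPKM. Promoter windows of 300 bases in RefSeq (GRCm38.p6) were at hand for 101 members. The motif of early B-cell factor, a regulator of olfactory neuron genes, was searched as TCCC and GGGA with any 2 bases between them, which reads the same on both strands. It occurred in 0 of the 137 windows of members and in 0.904% of all 32851 windows.

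Channels of mouse vomeronasal or olfactory neurons were taken as a list of 12 members, all of them measured. Scn9a (Nav1.7) and Scn3a are sodium channels of these neurons, and Scn9a is needed in the mouse for transmission from the terminals of the olfactory nerve. Scn9a had 10.2 and 9.91 RPKM in flushed males, 10.9 and 10.1 in flushed females, 6.98 and 7.19 in male pools and 7.31 and 7.44 in female pools. Scn3a had 11.6 and 12.2 RPKM in flushed males, 12.3 and 11.1 in flushed females, 7.18 and 8.43 in male pools and 8.27 and 8.43 in female pools. For both genes every flushed library was above every pool. The BK pore Kcnma1 had 19.8 and 20.8 RPKM in flushed males, 20.4 and 17.7 in flushed females, 18.1 and 14.1 in male pools and 16.3 and 13.2 in female pools, with male pool 1 above the lowest flushed library.

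The hyperpolarisation-activated channels Hcn2 and Hcn4 stood at 3.46 ± 0.761 and 1.97 ± 0.249 RPKM (SD, n = 8). Hcn2 had 3 and 3.04 RPKM in flushed males, 3.17 and 2.80 in flushed females, 3.13 and 4.12 in male pools and 3.38 and 5.07 in female pools, so the pools reached higher but overlapped. The small-conductance channel Kcnn3 (SK3) had 1.64 ± 0.215 RPKM. Kcnj3 (GIRK1), recorded together with SK3 in pheromone responses, was at 0.108 ± 0.0544 RPKM, with a mean count of 12.9, and so is measured imprecisely. Of the ERG channels, Kcnh6 and Kcnh2 were given above and Kcnh7 (ERG3) had 1.08 ± 0.191 RPKM. Between preparations 7 of these 12 rose in flushed libraries (among them Scn9a, Scn3a, Kcnma1, Kcnj3, Kcnh7 and Kcnq3), Hcn2 fell and 4 did not pass the test. These 7 are 58.3% of the list, beside 22.6% of all genes tested that were higher. The median log2 difference of the list was 0.34, against -0.02 over all 20601 genes tested. The list was chosen with earlier results of these data known, so its share and median are descriptions and no test of it. With length and GC content taken into account, as described with the comparison of preparations, 1 of the 7 was called higher. It was none of those named above, and the fall of Hcn2 was not called.

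Flushed single mice were then compared with non-flushed pools, a contrast in which preparation, pooling and run cannot be told apart. Of the 138 members, 112 passed the filter on low counts, and 26 rose in flushed libraries and 18 fell (edgeR quasi-likelihood test, Benjamini-Hochberg adjusted p under 0.05 over all genes). These are 23.2% and 16.1% of the tested members, beside 22.6% of all genes tested that were higher and 22.9% that were lower. The share of higher members is thus near the background. The median log2 difference of members was 0.09, against -0.02 for all genes. Levels did not overlap between the flushed and pool libraries for 37 of 112 members (33.0%), fewer than the 41.7% of all genes. Without a scaling factor between libraries the split became 35 higher and 12 lower.

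Among sodium channel alpha subunits 4 of 8 tested rose and none fell, beside 22.6% of all genes tested that rose and 22.9% that fell. Scn7a had 18.2 and 16.8 RPKM in flushed males, 16.4 and 16.2 in flushed females, 11.5 and 10.8 in male pools and 10.6 and 9.55 in female pools. Its log2 difference was 0.67 ± 0.06 (SE, adjusted p = 2.75e-05), and the groups did not overlap. Scn9a and Scn3a rose by 0.51 ± 0.05 and 0.55 ± 0.07 on the log2 scale (adjusted p = 5.08e-05 and 0.000162). The other one was Scn2a (Nav1.2), with 1.31 ± 0.158 RPKM in flushed libraries and 0.984 ± 0.0797 RPKM in pools. Counts of Scn9a and Scn3a were fractional, from reads with more than 1 position, in all 8 libraries, and those of Scn2a in 6. The share of such reads and their other positions were not measured, so these levels are uncertain to an unknown degree. Ensheathing and Schwann glia markers, a list of 8 with 1 higher and 5 lower, summed to 44.6 to 53.5 RPKM in flushed libraries and 55.3 to 60.2 RPKM in pools. Their part in these results was not tested.

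Of the 4 sodium channel beta subunits, 2 rose and 1 fell, beside 22.6% of all genes tested that rose and 22.9% that fell. Scn3b, the beta3 subunit, had 8.16 and 8.98 RPKM in flushed males, 9.80 and 9.42 in flushed females, 6.16 and 6.51 in male pools and 8.16 and 7.97 in female pools (log2 difference 0.34 ± 0.06, adjusted p = 0.0013). Its lowest flushed library and its highest pool were both at 8.16 RPKM after rounding. Scn4b rose by 0.59 ± 0.2 on the log2 scale (adjusted p = 0.0321). Its call was lost in 5 of 15 alternatives, among which fits within a sex and whole counts only were not counted. All 5 left out 1 library (flushed female 3, flushed male 1, female pool 1, female pool 2 or male pool 2, log2 difference 0.41 to 0.58). Within females or males alone Scn4b was not called either (adjusted p = 0.0664 and 0.331).

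Calcium channel subunits divided in a similar way. Cacna2d1, the alpha2delta1 subunit, had 11.5 and 10 RPKM in flushed males, 12.0 and 10.2 in flushed females, 7.31 and 6.79 in male pools and 6.93 and 6.94 in female pools, with no overlap (log2 difference 0.65 ± 0.07, adjusted p = 8.17e-05). Of the beta subunits, Cacnb4 and Cacnb2 rose by 0.66 ± 0.09 and 0.58 ± 0.07 on the log2 scale (adjusted p = 0.000286 and 0.00013). Cacnb3 fell to 15.8 and 16.6 RPKM in flushed males and 17.7 and 16.5 in flushed females, against 20.9 and 23.4 in male pools and 19.2 and 25.9 in female pools (log2 difference -0.43 ± 0.09, adjusted p = 0.0031). Of the pores, the T-type Cacna1g fell, with 7.84 and 7.60 RPKM in flushed males, 7.58 and 6.84 in flushed females, 10 and 9.53 in male pools and 9.06 and 9.85 in female pools (log2 difference -0.37 ± 0.06, adjusted p = 0.000589). Cacna1d, Cacna1e and Cacna1s rose, the last at a mean of 0.0621 RPKM. Cacna1c and Cacna1b did not pass the test (log2 differences 0.12 ± 0.07 and 0.07 ± 0.07).

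Among voltage-gated potassium channels, Kcna2 had 14.9 and 15.6 RPKM in flushed males, 16.1 and 14.9 in flushed females, 11.2 and 10.8 in male pools and 11.4 and 10.7 in female pools, with no overlap (log2 difference 0.48 ± 0.06, adjusted p = 0.000117). In all, 4 of 15 tested Kv alpha members rose and none fell, beside 22.6% of all genes tested that rose and 22.9% that fell. Besides Kcna2, the Kv alpha members that rose were Kcna1, Kcnd3 (Kv4.3) and Kcnc4 (Kv3.4). Kcnc4 rose by 0.60 ± 0.18 on the log2 scale (adjusted p = 0.0231), with 0.659 ± 0.0657 RPKM in flushed libraries and 0.435 ± 0.0856 RPKM in pools. Its call was lost with DESeq2 and without flushed female 3, flushed male 3 or male pool 1, with log2 differences of 0.48 to 0.61. Within females or males alone Kcnc4 was not called either (adjusted p = 0.241 and 0.0607). The silent subunit Kcng2 fell by 0.85 ± 0.17 (adjusted p = 0.00285) and Kcnh3 by 0.55 ± 0.11 (adjusted p = 0.00243), and Kcnab2, a cytoplasmic beta subunit, by 0.41 ± 0.09 (adjusted p = 0.00349). Kcne4, an inhibitory partner of Kcnq1, had 7.86 ± 0.647 RPKM in flushed libraries and 9.69 ± 0.574 RPKM in pools, and Kcnq1 itself 8.45 ± 0.918 RPKM in flushed libraries and 10.8 ± 0.507 RPKM in pools (adjusted p = 0.00598 and 0.00504).

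Of the 12 tested members of the calcium- and sodium-activated class, 3 rose (Kcnma1, Kcnt2 and Kcnn2) and 3 fell (Kcnn4, Kcnn1 and Kcnmb4). Over all genes tested, 22.6% rose and 22.9% fell. Kcnt2, a sodium-activated channel also called Slick, had 1.11 and 1.10 RPKM in flushed males, 1.02 and 0.96 in flushed females, 0.604 and 0.575 in male pools and 0.726 and 0.563 in female pools (log2 difference 0.76 ± 0.12, adjusted p = 0.000771). The BK pore Kcnma1 rose by 0.35 ± 0.09 (adjusted p = 0.0112), whereas Kcnmb2 had a log2 difference of 0.14 ± 0.06 (adjusted p = 0.0777) and Kcnmb4, the neuronal beta4 subunit, fell by 0.50 ± 0.15 (adjusted p = 0.0203). The Kcnmb4 call was lost in 5 of 15 alternatives, with log2 differences between -0.37 and -0.49 in them. They were DESeq2, no scaling factor, and leaving out flushed female 3, female pool 2 or male pool 2. Fits within a sex were not among the 15, and Kcnmb4 was not called within females or males alone (adjusted p = 0.0866 and 0.187). Kcnn2 (SK2) rose by 0.53 ± 0.12 (adjusted p = 0.00606). Kcnn4, a channel of blood and epithelial cells, fell by 0.48 ± 0.12 (adjusted p = 0.00971), and its groups overlapped.

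Kcnj8, the Kir6.1 pore of vascular ATP-sensitive channels, showed the lowest log2 difference of any member with at least 0.5 RPKM. It fell to 1.4 and 1.32 RPKM in flushed males and 1.30 and 1.46 in flushed females, against 2.78 and 2.61 in male pools and 2.15 and 2.77 in female pools (log2 difference -0.90 ± 0.12, adjusted p = 0.000312). Every flushed library was below every pool. Its sulfonylurea receptor partner Abcc9 had 2.92 RPKM in flushed libraries and 3.40 RPKM in pools, a difference that missed the threshold (log2 difference -0.22, adjusted p = 0.064). With correction for length and GC content Abcc9 passed as lower (log2 difference -0.43, adjusted p = 0.004). Smooth muscle and pericyte markers, 9 genes of which 1 was higher and 2 were lower, summed to 844 to 1030 RPKM in flushed libraries and 1020 to 1140 RPKM in pools. Endothelial markers, 8 genes of which 5 were lower, summed to 29.2 to 35.0 RPKM in flushed libraries and 38.5 to 42.9 RPKM in pools. Beside these marker counts, 22.6% of all genes tested were higher and 22.9% lower. The part of these cells in the fall of Kcnj8 was not tested. Kcnj12 (Kir2.2) fell by 0.71 ± 0.18 (adjusted p = 0.00846) and Kcnk5 (TASK-2) by 0.38 ± 0.14 (adjusted p = 0.0428). The Kcnk5 call was lost in 9 of 15 alternatives, among them leaving out flushed female 2, flushed male 1 or any of the 4 pools. Log2 differences were -0.28 to -0.42 without these libraries. Fits within a sex were not among the 15, and Kcnk5 was not called within females or males alone (adjusted p = 0.0713 and 0.406).

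The direction of these differences went along with the base composition of the transcripts. The 26 members that rose had a median GC content of 45.5% and a median exon length of 9102 bases, and the 18 that fell had 57.2% and 3344 bases. The 68 members that did not pass had 51.8% and 4496 bases. Ordered by GC content into 5 equal bins, all tested genes had a median log2 difference of 0.50 in the bin with the lowest GC content and -0.36 in the bin with the highest. Members gave 0.55 and -0.25 in the same bins, with 13 and 37 members in them. In the lowest bin 9 members rose and 0 fell, and in the highest 2 rose and 13 fell. Calls of all genes were not counted by bin, so these counts have no background of their own bin. Over all bins together, 22.6% of all genes tested rose and 22.9% fell.

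**Figure D3:**
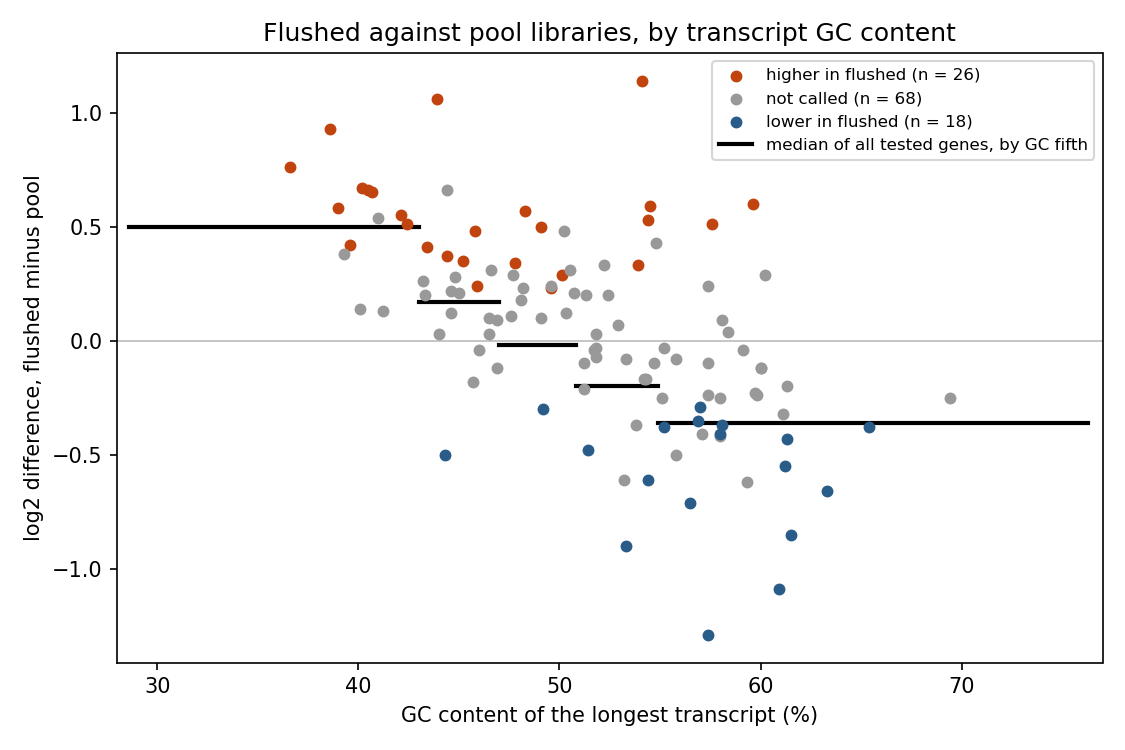
Log2 difference of flushed minus pool libraries (vertical axis) of the 112 tested members against the GC content of their longest transcript in percent (horizontal axis), with members higher in flushed libraries in red, lower in blue and not called in grey. Black lines give the median of all tested genes in each of 5 bins of GC content, which descends from 0.50 to -0.36 with rising GC content, and the members scatter around them.

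When length and GC content were taken into account as offsets, an alternative added after the data were seen, 14 members rose (beside 10.5% of all genes) and 9 fell (beside 12.4%). Of the 26 first called higher, 10 were called the same way, and of the 18 first called lower, 5. They included Kcna2, Kcna1, Kcnd3, Kcnc4, Kcng1, Kcnn2, Scn3b, Scn4b and Cacna1s on the higher side and Kcnj8, Kcnmb4, Kcng4, Kcne4 and Cacna1g on the lower. Kcna2 kept a log2 difference of 0.18 (adjusted p = 0.0225), Scn3b 0.29 (adjusted p = 0.0059) and Kcnj8 -0.65 (adjusted p = 0.00434). The sodium channel alpha calls did not hold: the log2 difference was 0.12 for Scn7a (adjusted p = 0.0593), 0.02 for Scn3a (adjusted p = 0.866) and -0.005 for Scn9a (adjusted p = 0.96). Cacna2d1 came to 0.02 (adjusted p = 0.855), Cacnb4 to 0.08 (adjusted p = 0.558) and Kcnma1 to 0.13 (adjusted p = 0.24). Kcnq1 and Kcnk5, first called lower, came to -0.04 (adjusted p = 0.718) and -0.10 (adjusted p = 0.641). Of the first 26 higher calls 6 had a negative value here, and of the 18 lower calls 3 had a positive one. Beside Scn9a these were Cacnb2 (-0.19), Kcnt2 (-0.06), Kcnq3 (-0.05), Scn2a (-0.04), Cacnb3 (0.02), Hcn2 (0.15) and Kcnn1 (0.02), none of which passed the test, and Kcnh7, which did, with a log2 difference of -0.34 (adjusted p = 0.0395). Of the other lower calls, Kcnh3 came to -0.12 (adjusted p = 0.329), Kcnab2 to -0.11 (adjusted p = 0.328), Kcnj12 to -0.37 (adjusted p = 0.12), Kcng2 to -0.40 (adjusted p = 0.0823) and Kcnn4 to -0.36 (adjusted p = 0.0631). Among members not called without the correction, Kcnmb2, Kcnj2 and Kcnab1 passed as lower, with -0.30, -0.28 and -0.31, and Kcnk3, Cacng7, Kcng3 and Kcnh1 passed as higher, with 0.32, 0.47, 0.52 and 0.28.

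**Figure D4:**
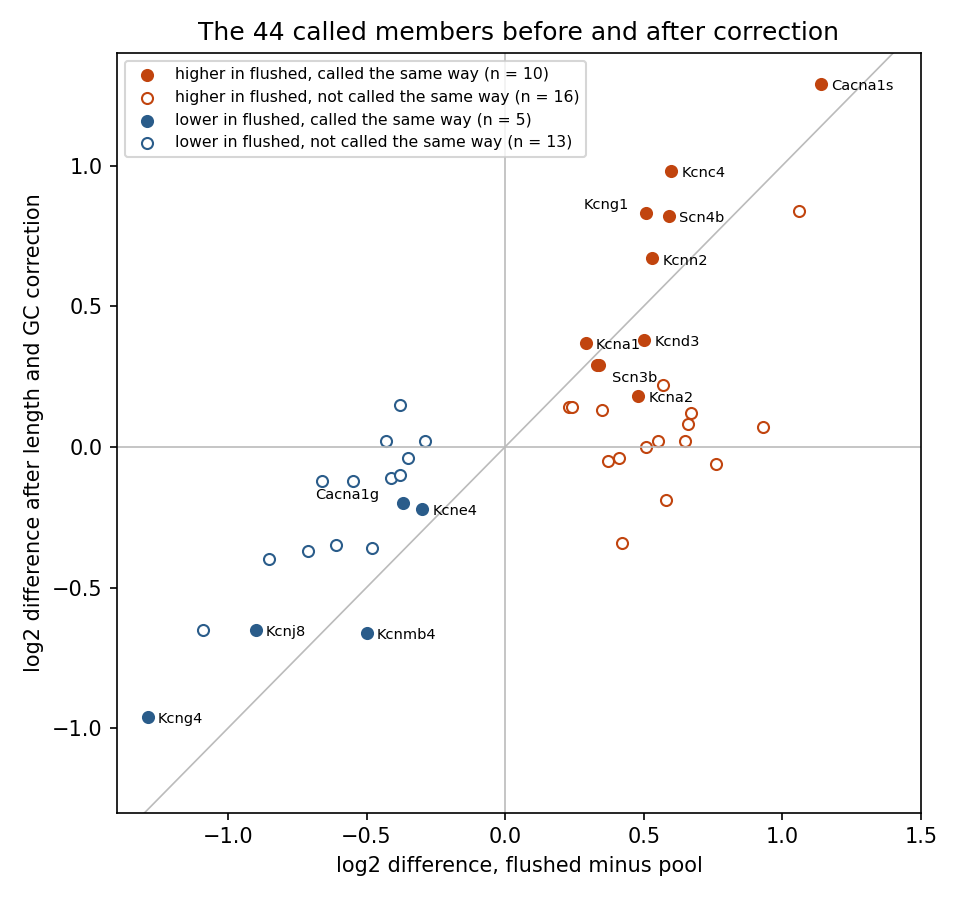
Log2 difference, flushed minus pool, of the 44 called members in the main fit (horizontal axis) and after correction for length and GC content (vertical axis). Filled points, all but 1 of them named, were called the same way after correction (10 higher in red, 5 lower in blue), and open points were not. The grey diagonal marks equal values, and most open points lie closer to 0 on the vertical axis than on the horizontal one.

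Partners of the channels from a list of 40 genes had 9 of 35 tested higher and 9 lower, 25.7% each, near the 22.6% and 22.9% of all genes. The sodium leak channel Nalcn rose to 1.63 RPKM in flushed libraries, against 0.95 RPKM in pools (log2 difference 0.78), and its accessory genes Unc79 and Unc80 rose by 0.35 and 0.53. Fgf12 and Fgf13, intracellular partners of sodium channels, rose by 0.62 and 0.50. The chloride importer Slc12a2 (NKCC1) had 104 RPKM in flushed libraries and 69.2 RPKM in pools and rose by 0.59, and Clcn3, Atp1b1 and Lgi1 rose as well. Lrrc26, the gamma1 subunit of BK channels, had 34.0 RPKM in flushed libraries and 50.9 RPKM in pools and fell by 0.58. The calcium-activated chloride channel Ano1 fell by 0.20. The cation channel Trpm4, the proton channel Hvcn1, the endolysosomal channel Tpcn1, the chloride channel Clcn2, Sptbn4 (betaIV spectrin) and Stac fell too. With correction for length and GC content 5 of the higher calls and 1 of the lower were made the same way. They were Nalcn (0.51, adjusted p = 0.013), Slc12a2 (0.33, adjusted p = 0.0031), Atp1b1 (0.38, adjusted p = 0.0051), Fgf12 (0.43, adjusted p = 0.0061), Fgf13 (0.42, adjusted p = 0.049) and, lower, Trpm4 (-0.32, adjusted p = 0.0053). Clcn3, first called higher, passed there as lower (-0.40, adjusted p = 0.002). Some genes of the list not called without the correction passed as lower too. They were Ank2 (-0.28, adjusted p = 0.0074), Ank3 (-0.30, adjusted p = 0.022), Cntnap2 (-0.24, adjusted p = 0.031) and Abcc9 (-0.43, adjusted p = 0.004). The calls of Unc79, Unc80, Lgi1, Lrrc26 (-0.09, adjusted p = 0.5), Ano1, Hvcn1, Tpcn1, Clcn2, Sptbn4 and Stac did not hold.

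A few members varied widely between libraries of the same group. Kcnrg had 6.25 and 6.62 RPKM in flushed males, 10.5 and 19.0 in flushed females, 7.01 and 9.39 in male pools and 13.9 and 6.63 in female pools. Flushed female 3 and female pool 1 were highest, and within both groups the other library was lower. Kcnj16 had 4.85 and 5.96 RPKM in flushed males, 5.62 and 9.59 in flushed females, 5.34 and 4.64 in male pools and 7.46 and 4 in female pools, and was highest in the same 2 libraries. Kcne3, a subunit that converts Kcnq1 into an epithelial leak channel, had 2.05 and 2.17 RPKM in flushed males, 2.77 and 4.80 in flushed females, 3.52 and 2.13 in male pools and 4.83 and 1.92 in female pools. Kcnj1, the renal channel ROMK, followed at a lower level, with 0.912 RPKM in flushed female 3 and 0.854 in female pool 1. These 4 were chosen after their values were seen. The summed level of 8 ciliated respiratory cell markers was 60.1 and 69.6 RPKM in flushed males, 71.6 and 126 in flushed females, 86.4 and 85.5 in male pools and 113 and 79.1 in female pools, and so was highest in the same libraries. Its part in the result was not tested. Over members with a mean count of at least 20, the median SD between libraries of a group was 0.159 on the log2 scale (99 members), against 0.134 over 17870 genes.

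**Figure D5:**
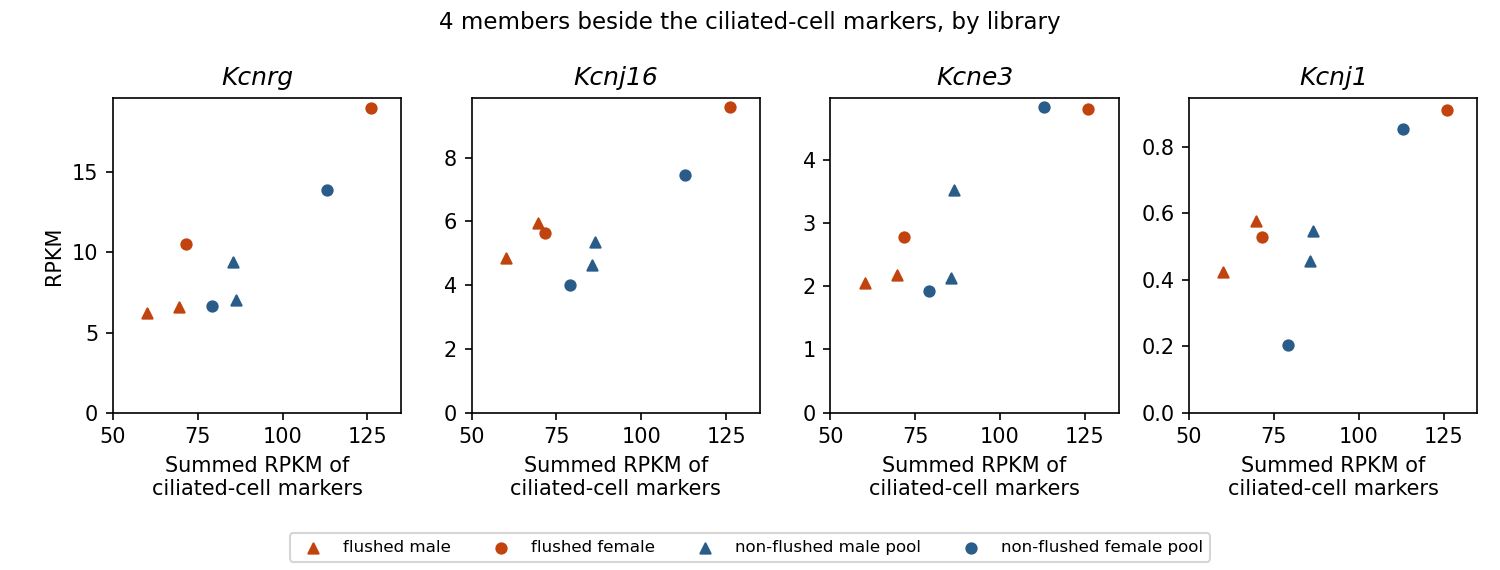
RPKM of Kcnrg, Kcnj16, Kcne3 and Kcnj1 (vertical axes, 1 panel each) against the summed RPKM of 8 ciliated respiratory cell markers (horizontal axes), 1 point per library, with flushed libraries in red and non-flushed pools in blue, triangles for males and circles for females. Flushed female 3 (126 RPKM of markers) and female pool 1 (113) are the 2 highest libraries in each panel.

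Between males and females no member passed the same test over all genes, with 0 of 112 called beside 0.116% of all genes tested (24 genes). At an unadjusted p under 0.05 there were 6 members, or 5.36%, against 7.96% of all genes. Among members, DESeq2 called Kcnn4 alone (log2 difference of males minus females 0.47, adjusted p = 0.047) and limma-voom 0. Over all 20601 genes tested, DESeq2 called 124 by sex. The member with the smallest p was Scn3b, with 7.45 ± 1.34 RPKM in males and 8.84 ± 0.908 RPKM in females (SD, n = 4 each). Its log2 difference was -0.25 ± 0.06 and its edgeR adjusted p was 0.312. Within preparations the female libraries were above the male ones, by 0.17 in flushed tissue and 0.35 in pools on the log2 scale. Kcnn4 averaged 4.69 ± 1.25 RPKM in males and 3.36 ± 0.605 RPKM in females, with overlap and an edgeR adjusted p of 0.395. Kcnj11, the Kir6.2 pore, had 0.112 ± 0.0501 RPKM in males and 0.208 ± 0.0338 RPKM in females (edgeR adjusted p = 0.513).

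The effect of preparation was also compared between the sexes. No member passed (0 of 112, beside 0.0485% of all genes, 10 genes). At an unadjusted p under 0.05 there were 3 members, or 2.68%, against 3.25% of all genes. DESeq2 and limma-voom called 0 members each. The smallest p-values belonged to Kcna4, Kcnj3 and Kcnq5, each with an edgeR adjusted p of 1. For Kcna4, flushed minus pool was 1.09 in males and -0.44 in females on the log2 scale, with 0.689 and 0.959 RPKM in flushed males, 0.731 and 0.413 in flushed females, 0.459 and 0.309 in male pools and 0.797 and 0.751 in female pools. For Kcnq5, flushed minus pool was 0.62 in males and -0.03 in females.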

How the data were processed

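RNA of the vomeronasal organ was read as single ends of 100 bases from polyA-selected, stranded libraries, per the labels' protocols. The submitters' processing notes name STAR 2.7.1a, featureCounts 1.6.5 and the build GRCm38 (mm10). The authors deposited expected counts without normalization: per the file headers, reads were assigned to exons on the reverse strand, multi-mapping reads were split into fractions, and reads over more than 1 gene were left out. Shared reads dilute differences between near-identical genes, and 29 members had such reads in at least 1 library.

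After rounding to whole numbers, all genes were fitted with edgeR 4.0.16 under R 4.3.3 (TMM, filterByExpr on the 4 groups, quasi-likelihood F test, additive sex and preparation), and a separate fit gave the interaction. Calls needed a Benjamini-Hochberg adjusted p under 0.05 over 20601 genes. Every adjusted p in the text is from edgeR unless DESeq2 1.42.0 or limma-voom (limma 3.58.1) is named. SE is the size of the log2 difference over the square root of F. RPKM used unrounded counts, the deposited exon length and the TMM-scaled library size. GC content and filter codons came from GENCODE M21 transcripts, which named 48422 of the 48831 genes by identifier. The tests were checked on simulated data. Replicates are separate mice or pools, per the labels.

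The members and gene lists were chosen with earlier results of these data known. Members named are the 3 highest of each class with at least 1 RPKM, the 10 highest, the 10 with the largest preparation difference in each direction among those called with at least 0.5 RPKM, the 3 smallest p-values by sex and for the interaction, the 12 neuronal channels, and called partner genes, apart from a few genes that are not reported here. Other members named were chosen after their values were seen. Alternatives were DESeq2, limma-voom, other scaling, no low-count filter, whole counts only, length correction, fits within sexes or preparations, no X and Y genes, leaving out each library and, added later, length with GC correction. Where a call of 1 gene is tallied over 15 alternatives, whole counts only, fits within sexes or preparations and no X and Y genes are not counted.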

Additional observations from a re-analysis of the deposited data

Results flagged for a closer look

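In 7 of 114 checks of the 4 libraries of a preparation, 1 library stood apart by Dixon's gap test, and chance gives about 1 in 20. Among flushed libraries, Cacna1b was 6.16 RPKM in flushed male 3, with 5.12 to 5.25 in the others. Cacnb2 was 5.54 RPKM in flushed female 2, with 4.75 to 4.83 in the others. Kcne4 was 6.89 RPKM in flushed male 3, with 8.12 to 8.26 in the others.

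Among pools, Kcna6 was 10.5 RPKM in female pool 2, with 8.24 to 8.46 in the others, and Kcnmb4 was 1.59 RPKM in the same library, with 1.01 to 1.09 in the others. Cacna2d3 was 2.80 RPKM in male pool 2, with 3.45 to 3.50 in the others. Scn3a was 7.18 RPKM in male pool 1, with 8.27 to 8.43 in the others.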

How the results depend on the processing

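Against the 26 members higher in flushed libraries and 18 lower, correction for length and GC content gave 14 and 9. Fits within females gave 12 and 8 and within males 16 and 9, which use 2 libraries a side. Of all 20601 genes tested, 9377 were called in the main fit. This count fell to 4731 with correction for length and GC content, 5533 within females and 5086 within males. Leaving out 1 library gave 21 to 27 higher and 12 to 17 lower. That correction reversed the sign of 6 of the higher calls and 3 of the lower: Kcnt2 (-0.06), Cacnb2 (-0.19), Scn9a (-0.005), Kcnq3 (-0.05), Scn2a (-0.04), Kcnh7 (-0.34), Cacnb3 (0.02), Hcn2 (0.15) and Kcnn1 (0.02). Of these, Kcnh7 alone passed the test there (adjusted p = 0.0395). The counts with DESeq2, limma-voom, RLE size factors, no scaling factor, no low-count filter, whole counts only and length correction ranged from 18 to 35 higher and 12 to 19 lower. By sex, DESeq2 called 1 member, beside 124 of all 20601 genes tested. Without the low-count filter 5 of 134 members were called by sex, beside 784 of all 32514 genes fitted. These were Kcnn4, higher in males, and Scn3b, Kcnrg, Kcnj16 and Kcne3, lower in males. For the interaction, 1 member (Kcna4) was called without that filter, beside 263 of all 32514 genes fitted. The cause was not tested. With any 1 library left out, the counts by sex and for the interaction were 0. No paired analysis was possible because pools carry no replicate number and the flushed sexes share only 1 number. Of the 26 members left out by the low-count filter, which rest on few reads, 22 were fitted without it and 1 was called (Kcne1l, 0.0254 to 0.0583 RPKM in flushed libraries and 0.14 to 0.298 RPKM in pools, log2 difference -1.93, adjusted p = 0.028). Fractional counts leave the levels of Scn1a, Scn2a, Scn3a, Scn9a and Kcna1 uncertain to a degree that was not measured.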

Other observations

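In RefSeq promoter windows of 300 bases, the 18 members higher in flushed libraries with a window had a median of 19 CpG dinucleotides, the 12 lower ones 11, the 50 not called 10 and the 21 not tested 7, against 7 over 27025 genes (for a gene with several windows, the first listed). No test was made of these counts.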
